A study of Mus musculus with 6 samples.

Results

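The genes described here are 10 components of the NF-kappaB pathway, taken by symbol from the 32285 genes counted in every library: the inhibitors Nfkbia, Nfkbie, Nfkbiz, Nfkbid and Tnfaip3 and the subunits Rela, Rel, Relb, Nfkb1 and Nfkb2. NF-kappaB is a family of transcription factors that dimerize from Rel-homology subunits. Rela, Rel and Relb carry a transactivation domain, whereas Nfkb1 and Nfkb2 encode the precursors p105 and p100, which are processed to the DNA-binding proteins p50 and p52. In resting cells the dimers are held in the cytoplasm by IκB proteins, and signals from Toll-like, interleukin-1 and TNF receptors lead to IκB degradation and nuclear entry. Several inhibitor genes are themselves targets of the pathway, which closes a negative feedback loop. In microglia, the resident macrophages of the brain, the pathway is known for driving cytokine and chemokine genes, Ccl3 and Ccl4 among them.

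The cells were CD45+ CD11b+ myeloid cells sorted from the brains of 3 male C57BL/6J mice at postnatal day 89, after mechanical dissociation in the cold with a Dounce homogenizer. Mice 1 and 3 were processed without inhibitors (DNC-NONE), and mouse 2 with a cocktail of transcription and translation inhibitors (actinomycin D, triptolide and anisomycin; DNC-INHIB). Cells of each mouse were captured with 2 versions of the 10x Genomics 3′ kit, V3.0 and V3.1, so that each kit has 3 libraries and the DNC-INHIB condition is 1 mouse. All 6 libraries shared the strain, sex, age and cold dissociation, and none came from an enzymatically digested brain.

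Of 29412 barcodes, 19725 passed the cell filter, which asked for 1000 to 4000 genes, no more than 12000 UMIs and a mitochondrial share of no more than 15%. The V3.0 library of mouse 3 stood apart: 21.5% of its 4401 barcodes passed, against 70.0% to 76.8% in the other libraries, although its passing cells had a median of 3474 UMIs, within the 3423 to 3741 of the others. Any pair of libraries shared 1 to 5 barcodes among passing cells. Cells were assigned by summed UMIs of marker genes, which gave 18958 microglia, 79 border macrophages and 270 neutrophils, and 418 cells stayed outside every gate. Within microglia, 66 cells had at least 1 UMI of both Ccl3 and Ccl4 (27, 25 and 14 cells in mice 1, 2 and 3) and are called Ccl3/Ccl4+ microglia, 18282 had no UMI of either (Ccl3/Ccl4- microglia), and 610 had UMIs of only 1 of these chemokines.

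The gates were set on the same marker genes, so the marker sums describe the gated cells and do not test them. The 10 microglial markers summed to 28947 to 30467 CPM (UMIs of a gene per 1000000 UMIs of the same cells) over the 3 mice in microglia, 3399 to 4322 in border macrophages and 185 to 229 in neutrophils. The 10 border macrophage markers summed to 3887 to 6016 CPM in border macrophages and 261 to 274 CPM in microglia. All 10 were detected in the border macrophage gate, where Mrc1, the mannose receptor, reached 892 CPM and Pf4 994 CPM with the mice pooled. That gate also held RNA of H2-Aa, an MHC class II chain, at 10721 CPM and of the monocyte marker Ccr2 at 496 CPM (both named after their values were seen), and its 6 monocyte markers summed to 426 to 703 CPM, against 11.5 to 17.6 in microglia; their part in the border macrophage values was not tested. The neutrophil markers took 496598 to 507012 CPM in neutrophils, where S100a8 and S100a9 alone made up 39.5% of all UMIs. Neutrophil markers also summed to 782 to 1244 CPM in microglia and 595 to 971 CPM in border macrophages. Neuronal Snap25, another gauge of free RNA, was seen in 0.2% of microglia (38 of 18958 cells, exact binomial 95% interval 0.142% to 0.275%).

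The promoters are described because several of these genes are known to be controlled by NF-kappaB itself. RefSeq start sites on GRCm38.p6 were available for 7 of the 10 members (12 windows of 250 bases upstream of a start). The κB consensus, searched on both strands, was present in 8 of these 12 windows and in 6 of the 7 genes (Nfkbia, Nfkbie, Nfkbid, Tnfaip3, Rel and Nfkb2; not in the window of Rela). Over all 32851 windows 7.25% held a match, and over all 27025 genes 8.23% did. The upstream windows of Nfkbia, Rel and Nfkbid are printed below with the matches in capitals, since Nfkbia and Rel were called higher in the Ccl3/Ccl4+ microglia described later, and Nfkbid in a fit without the filter, which did not call Rel:
Nfkbia (chr12:55492648-55492897, minus strand): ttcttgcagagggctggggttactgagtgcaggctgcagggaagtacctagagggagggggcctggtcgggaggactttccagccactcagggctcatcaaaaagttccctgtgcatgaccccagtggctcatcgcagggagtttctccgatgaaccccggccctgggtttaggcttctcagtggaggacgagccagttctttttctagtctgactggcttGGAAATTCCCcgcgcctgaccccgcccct
Rel (chr11:23770970-23771219, minus strand): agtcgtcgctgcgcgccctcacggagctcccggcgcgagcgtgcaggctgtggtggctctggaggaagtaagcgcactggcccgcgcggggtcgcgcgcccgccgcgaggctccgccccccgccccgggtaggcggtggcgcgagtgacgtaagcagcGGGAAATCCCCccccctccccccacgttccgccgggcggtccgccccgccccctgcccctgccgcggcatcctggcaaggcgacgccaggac
Nfkbid (second start, chr7:30422156-30422405, plus strand): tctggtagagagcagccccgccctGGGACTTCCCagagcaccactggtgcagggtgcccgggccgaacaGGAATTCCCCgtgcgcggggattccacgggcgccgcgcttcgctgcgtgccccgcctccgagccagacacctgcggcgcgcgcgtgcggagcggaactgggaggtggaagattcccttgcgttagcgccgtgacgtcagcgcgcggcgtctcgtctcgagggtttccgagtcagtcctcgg
The match lay 20 to 29 bases before the Nfkbia start and 82 to 92 bases before the Rel start, and this Nfkbid window had matches at 172 to 181 and at 217 to 226 bases. A match describes the letters of the window and is not a measured binding site.

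In microglia every member was detected in every library. Levels are not ranked between genes. Nfkbia encodes IκBα, the classical inhibitor that NF-kappaB induces to end its own response. It stood at 128, 179 and 168 CPM in the V3.0 libraries of mice 1, 2 and 3 and at 158, 209 and 192 CPM in the V3.1 libraries. Over the 6 libraries, which are 2 kits of the same 3 mice and not 6 replicates, it was 172 ± 28.2 CPM (SD). Mouse 1 was lowest with either kit, and within each mouse the V3.1 library was the higher. Nfkb1 was at 178, 193 and 194 CPM with V3.0 and 137, 151 and 160 CPM with V3.1 in the same order of mice. Rel, which encodes the hematopoietic subunit c-Rel, was at 123, 125 and 131 CPM with V3.0 and at 145, 147 and 145 CPM with V3.1. For both of these subunits the kits did not overlap. Rela, encoding the p65 subunit, ranged from 59.6 to 68.2 CPM over the 6 libraries.

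The remaining members had few UMIs in microglia. Tnfaip3, which encodes the ubiquitin-editing enzyme A20, ranged from 22.2 to 31.2 CPM, Nfkbie (IκBε) from 19.5 to 28.4 CPM and Relb from 18.4 to 22.8 CPM. Nfkb2 ranged from 11.3 to 15.9 CPM. Its locus overlaps Psd on the opposite strand, and whether this affects its level was not tested. Of the genes of nuclear IκB proteins, Nfkbiz (IκBζ, a coactivator of secondary response genes) ranged from 8.37 to 11.2 CPM and Nfkbid (IκBNS) from 3.94 to 7.13 CPM. At least 1 UMI of Nfkbia was seen in 40.6% of microglia, of Nfkbiz in 3.24% and of Nfkbid in 2.06%, at a median of 3509 UMIs per cell.

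**Figure D1:**
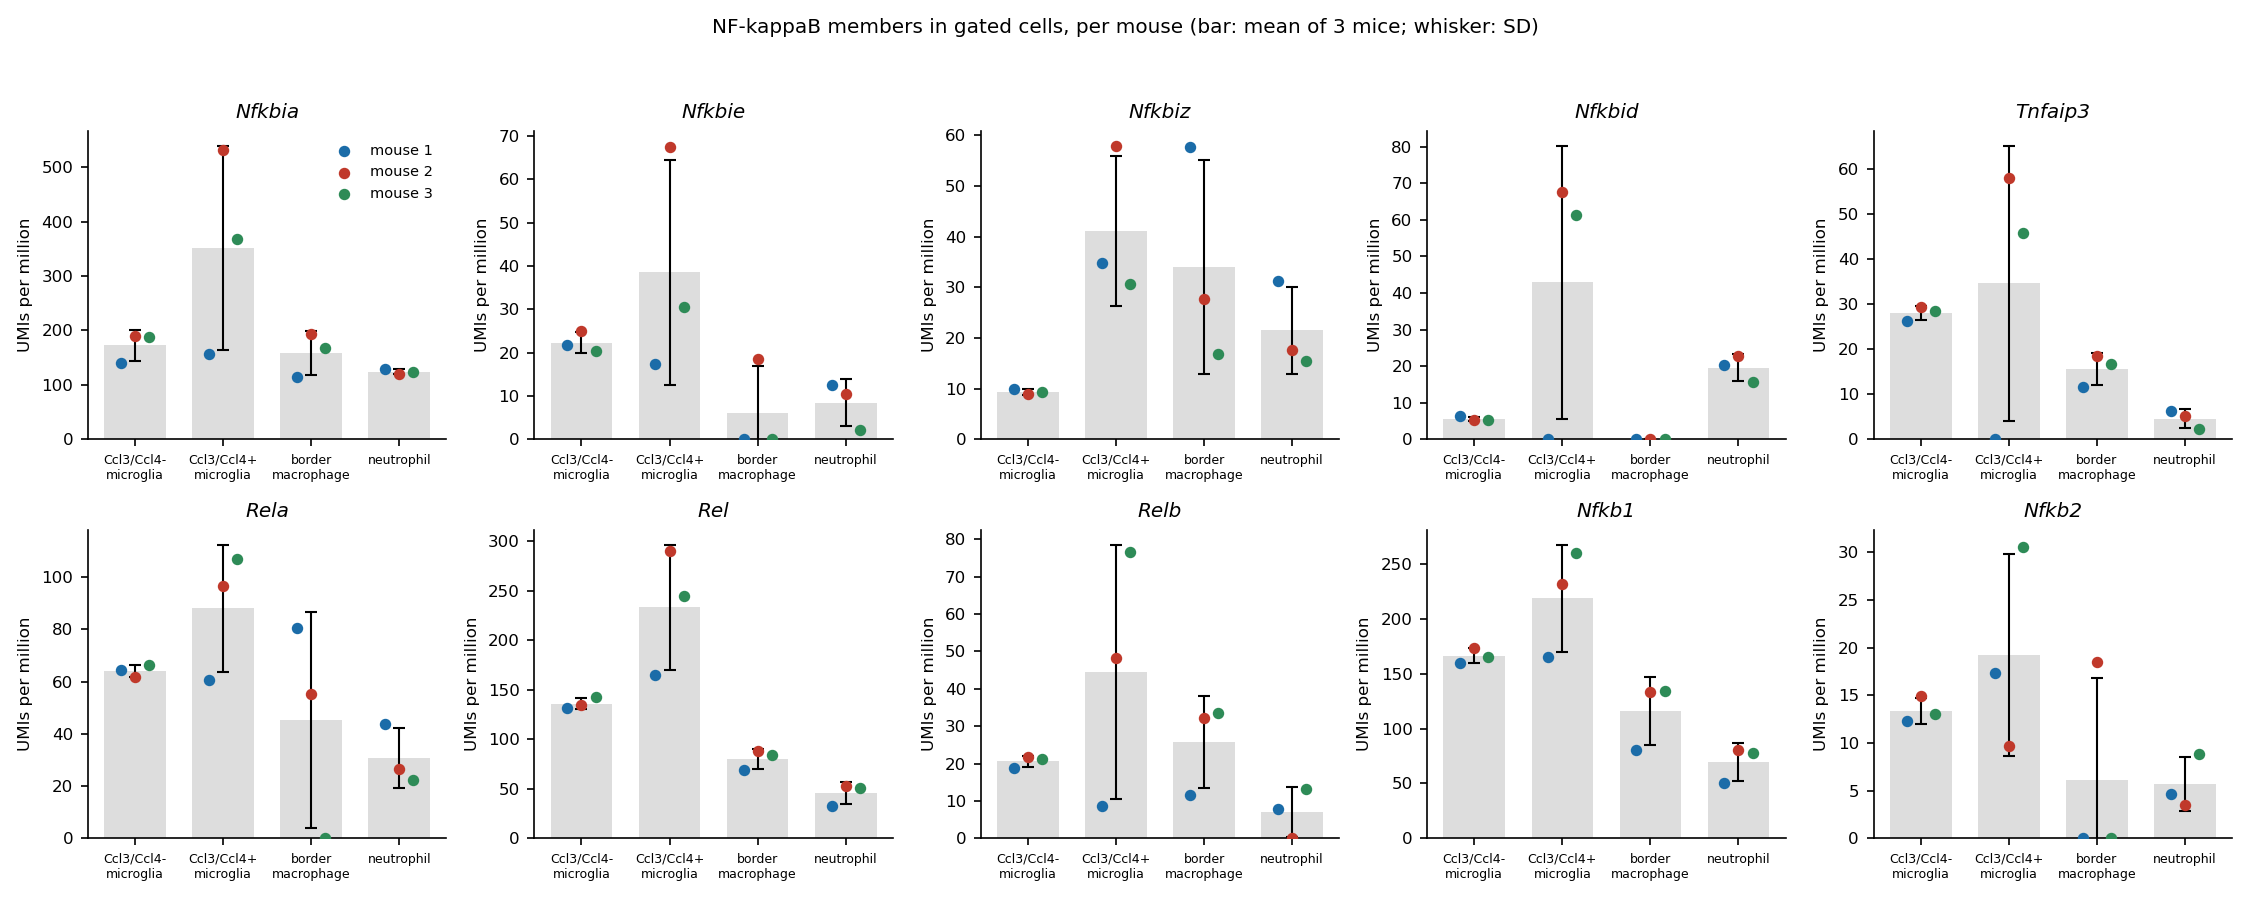
CPM of each member in Ccl3/Ccl4- microglia, Ccl3/Ccl4+ microglia, border macrophages and neutrophils; points are the 3 mice, bars their mean and whiskers the SD, drawn only above 0. The highest bar of every member is that of Ccl3/Ccl4+ microglia, with mouse 1 (156 CPM of Nfkbia) well below mouse 2 (531 CPM) there. Some of these bars rest on few UMIs (2, 1 and 2 of Nfkb2 in mice 1, 2 and 3). Of the 6 members tested 3 were called higher, beside 2.04% of all genes tested. Nfkbiz, among these 3, could only be tested because it was high in Ccl3/Ccl4+ cells. In mouse 1 the Ccl3/Ccl4+ cells were below the Ccl3/Ccl4- cells in Nfkbie, Nfkbid, Tnfaip3, Rela and Relb, and in mouse 2 in Nfkb2.

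Ccl3/Ccl4+ microglia were compared with Ccl3/Ccl4- microglia of the same mice to ask whether the members move with these chemokines. Nfkbia was at 156, 531 and 367 CPM in Ccl3/Ccl4+ cells of mice 1, 2 and 3 (18, 55 and 24 UMIs) and at 139, 190 and 187 CPM in Ccl3/Ccl4- cells. The positive cells were the higher in each mouse, by 1.12-fold in mouse 1, 2.79-fold in mouse 2 and 1.96-fold in mouse 3. In a single edgeR quasi-likelihood fit over the 12 sums per mouse and cell group, blocked by mouse, Nfkbia rose by 0.98 ± 0.20 (log2 fold change ± SE, adjusted p = 0.000934). Rel rose by 0.75 ± 0.22 (adjusted p = 0.0407), from 132, 134 and 142 CPM to 165, 290 and 245 CPM, again the higher in each mouse. Nfkbiz, at 9.96, 8.89 and 9.26 CPM in negative cells, was at 34.7, 57.9 and 30.6 CPM in positive cells, on 4, 6 and 2 UMIs (2.13 ± 0.58, adjusted p = 0.0227).

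These 3 genes were all the members called (adjusted p under 0.05 and an absolute log2 fold change over 0.58, about 1.5-fold), out of 6 that passed the filter on low counts, and no member was lower. Over all 6273 genes tested, 2.04% were called higher and 0.717% lower (128 of 173 calls higher, and 159 of 181 with DESeq2 size factors). Nfkbiz reached the filter's minimum of 29.98 CPM in the 3 sums of positive cells but in none of the negative cells, so it could only be tested because it was high; without the filter its adjusted p was 0.0764 and that of Rel 0.34. Relb reached the minimum in 2 sums of positive cells and in none of the negative cells. The 4 members at the minimum in every sum of negative cells (Nfkbia, Rela, Rel and Nfkb1) had a median log2 fold change of 0.57. The median of all genes tested, which were not held to this condition, was -0.06. Rela (0.39 ± 0.36), Relb (0.93 ± 0.57) and Nfkb1 (0.34 ± 0.22) did not pass the test, with adjusted p of 0.737, 0.521 and 0.546.

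Nfkbid did not pass the filter. It had 0, 7 and 4 UMIs in the positive cells of mice 1, 2 and 3 (0, 67.6 and 61.2 CPM), against 6.30, 5.25 and 5.33 CPM in the negative cells. Without the filter it was called higher (2.59 ± 0.68, adjusted p = 0.0183), where 0.532% of 18975 genes were called higher. Nfkbie, Tnfaip3 and Nfkb2 had 11, 9 and 5 UMIs in all positive cells and were not tested in the filtered fit.

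The calls changed when a mouse or a kit was left out. Without mouse 2 no member was called by edgeR, with Nfkbia at 0.58 (adjusted p = 0.381) and Rel at 0.54 (adjusted p = 0.506), and 1 of 4 tested had an unadjusted p under 0.05. Nfkbia kept its call when mouse 1 was left out (1.22, adjusted p = 4.8e-06) or mouse 3 (1.00, adjusted p = 0.00322). Rel lost its call without mouse 3 (adjusted p = 0.177), and Nfkbiz lost its call when mouse 1 or mouse 3 was left out (adjusted p of 0.0712 and 0.0693) and was not tested without mouse 2. Mouse 2 is the DNC-INHIB mouse. With V3.0 libraries alone Nfkbia was at 0.36 (adjusted p = 0.740) and Rel at 0.14 (adjusted p = 0.951). With V3.1 libraries alone Nfkbia was at 1.28 (adjusted p = 0.000213) and Rel at 1.08 (adjusted p = 0.0112). These differences between kits were not tested. With at least 1 UMI of either chemokine as the criterion, Nfkbia was at 0.35 (adjusted p = 0.00205), under the fold threshold. By library, the Ccl3/Ccl4+ cells had 196, 239 and 124 CPM of Nfkbia with V3.0 and 59.7, 804 and 447 CPM with V3.1, on 2 to 43 UMIs each. Removing the V3.0 library of mouse 3 left the same number of members called, with Nfkbia at 1.05 (adjusted p = 0.000217). The microglial gate admitted at most 2 border macrophage markers in a cell and required microglial markers, so the next values do not test the cells. Of 10 border macrophage markers the Ccl3/Ccl4+ microglia held UMIs of 2, with Mrc1 and Pf4 at 0, and their microglial markers summed to 23892 to 26380 CPM, against 29046 to 30510 in the negative cells. Their median was 4169 UMIs a cell, against 3501.

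**Figure D2:**
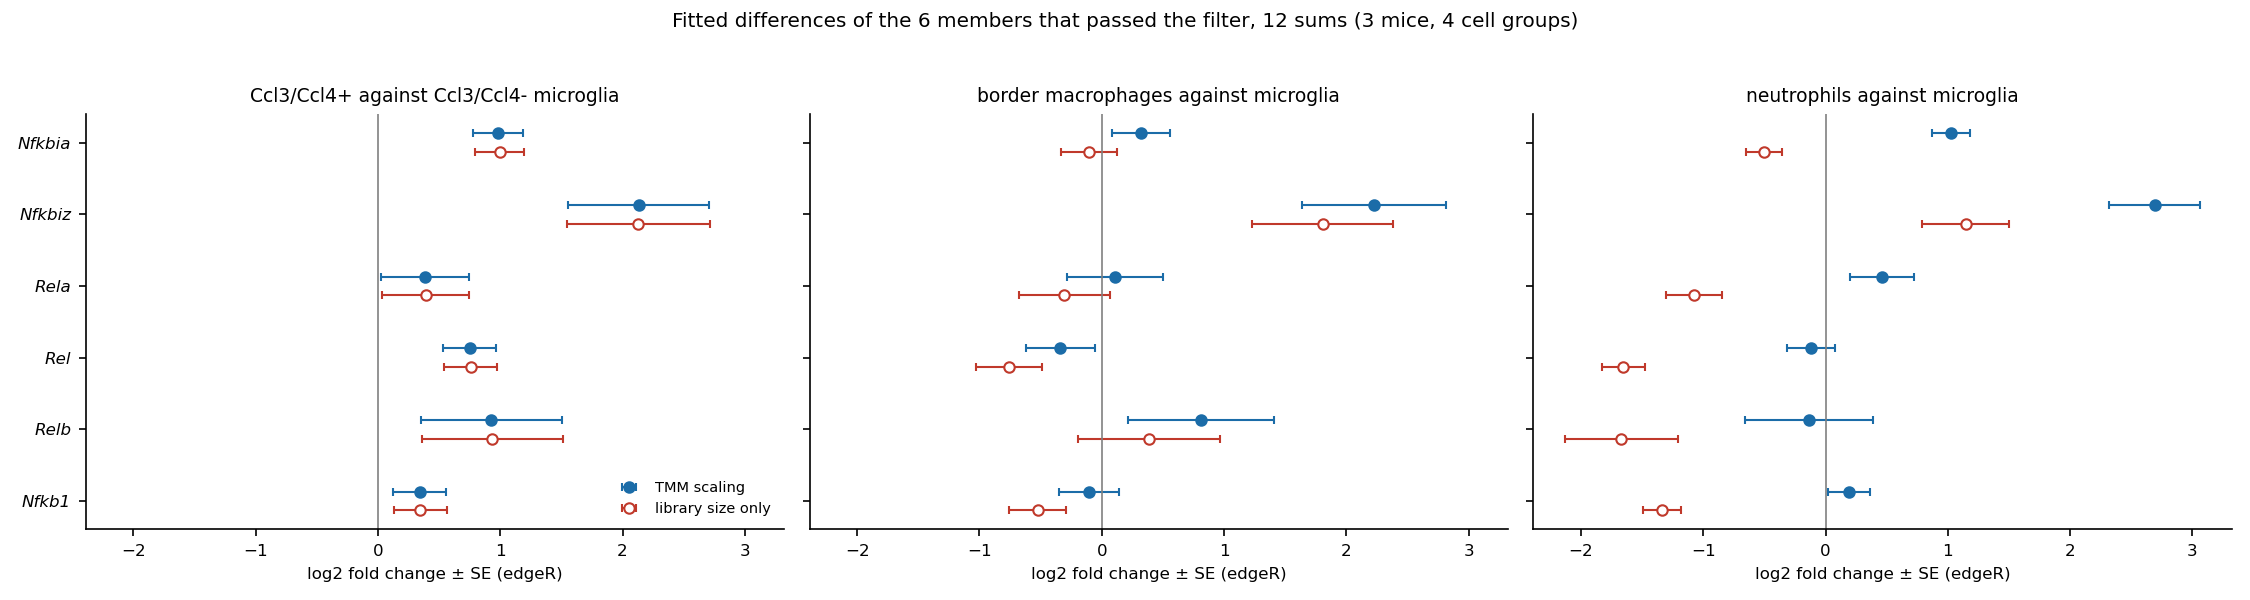
Log2 fold change ± SE from edgeR for the 6 members that passed the filter, in Ccl3/Ccl4+ against Ccl3/Ccl4- microglia, border macrophages against microglia and neutrophils against microglia, with TMM scaling (filled) and with scaling by library size alone (open). The scalings coincide in the first panel (0.98 and 0.99 for Nfkbia) and take opposite signs for Nfkbia in neutrophils (1.03 and -0.51).

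With the libraries pooled, Nfkbia was higher in microglia with more Ccl3 and Ccl4 UMIs. It was at 173 CPM in the 18282 microglia without a UMI of either gene (exact Poisson 95% interval 170 to 176), 181 CPM in the 514 with 1 UMI (163 to 201), 257 CPM in the 120 with 2 to 4 (214 to 307), 413 CPM in the 29 with 5 to 19 (307 to 545) and 469 CPM in the 13 with 20 or more (323 to 658). The intervals of the 2 highest classes lay above those of the 2 lowest. By mouse the order was uneven: from the lowest class to the highest, Nfkbia was at 139, 154, 150, 566 and 63.6 CPM in mouse 1 (1 UMI in the last), 190, 211, 412, 388 and 454 CPM in mouse 2 and 187, 191, 230, 283 and 822 CPM in mouse 3. Mouse 2 gave 39.3% of the cells of the lowest class and 46.2% of the highest, and the part of the mix of mice in the pooled values was not tested. Nfkbid went from 5.61 CPM without either chemokine to 18.8 CPM at 2 to 4 UMIs and 85.2 CPM at 20 or more (6 UMIs, 3 each from mice 2 and 3, interval 31.3 to 185). Rela showed no such order, at 63.9, 60.7, 79.4, 74.4 and 71.0 CPM over the 5 classes, and Tnfaip3 stayed between 24.8 and 42.6 CPM with overlapping intervals. In the same order P2ry12, the purinergic receptor that marks resting microglia, stood at 3282, 3031, 2906, 1843 and 1236 CPM. These intervals cover counting error only, and cells of a mouse are not replicates.

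**Figure D3:**
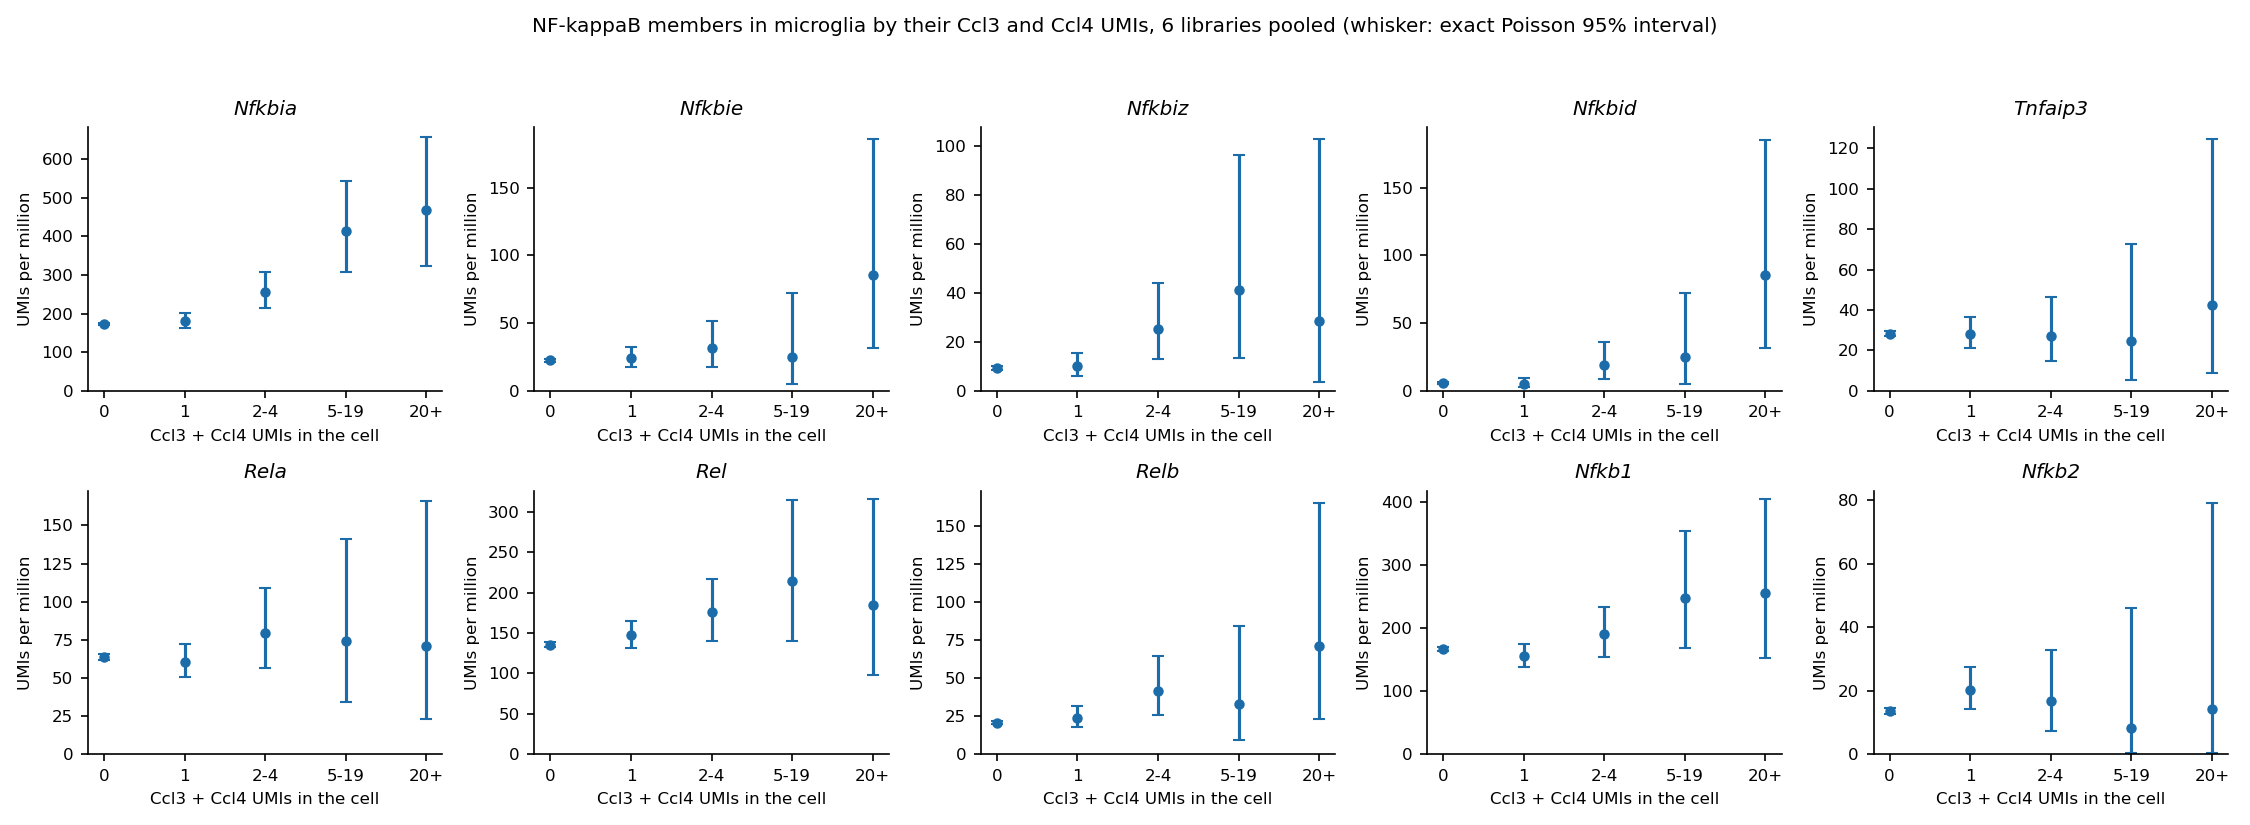
CPM of each member in microglia grouped by their summed Ccl3 and Ccl4 UMIs, with the 6 libraries pooled and exact Poisson 95% intervals. Nfkbia climbs from 173 to 469 CPM across the 5 classes while Rela stays between 60.7 and 79.4 CPM.

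Shares of cells with a UMI were also compared at equal depth. After each cell was thinned to 2000 UMIs, Nfkbia was detected in 36.9% of Ccl3/Ccl4+ microglia (24 of 65 cells, exact binomial 95% interval 25.3% to 49.8%) and in 26.7% of Ccl3/Ccl4- microglia (26.1% to 27.4%), against 56.1% and 40.4% before thinning. For Rel the thinned shares were 18.5% (9.92% to 30.03%) and 22.5% (21.9% to 23.1%), so that its difference was not detectable at this depth. This draw kept 18 Rel UMIs in positive cells, where the depths of the cells give an expectation of 29.3.

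Listed NF-kappaB target genes were compared between Ccl3/Ccl4+ and Ccl3/Ccl4- microglia as well. Of 25 target genes listed, 15 were tested, 9 were higher in Ccl3/Ccl4+ microglia and 0 lower, beside 2.04% and 0.717% of all genes. The largest rises were those of Gadd45b, a stress-response gene, by 6.74 ± 0.77 (adjusted p = 1.1e-09), the chemokine gene Ccl2 by 6.73 ± 0.35 (adjusted p = 2.2e-23) and Il1b, encoding interleukin-1β, by 5.90 ± 0.40 (adjusted p = 1.5e-18). Il1b was at 0, 579 and 107 CPM in positive cells of mice 1, 2 and 3, and its log2 fold change without mouse 2 was 3.94 (adjusted p = 0.00249). Among 24 receptor and adaptor genes 1 of 17 tested was higher, and none of 7 kinases and 11 further inhibitors and ubiquitin enzymes tested was called with TMM (1 kinase was lower with library size). The study's own list of genes induced by dissociation also holds Nfkbiz, Nfkbid, Ccl3 and Ccl4, so it is not independent evidence of a direction here. Of its 21 other genes, 10 of 18 tested were higher, beside 2.04% of all genes. Egr1 (6.48 ± 0.81) and Gem (5.74 ± 0.76) led these, with an adjusted p of 2.0e-08 and 1.4e-07. Of the 9 targets and 10 dissociation genes called, 6 and 5 reached the filter's minimum in no sum of the negative cells, among them Gadd45b, Ccl2, Il1b, Egr1 and Gem, and Gem, Csf1 and Ccrl2 reached it in positive cells alone, so these genes could be tested only because they were high there or in another cell group. Without mouse 2, 5 of 13 targets and 4 of 17 dissociation genes were higher, and Gadd45b and Egr1 were not tested. Gadd45b stood at 0.425 CPM and Gem at 0.834 CPM in the pooled negative cells, on 28 and 55 UMIs.

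Border macrophages differed from Ccl3/Ccl4- microglia in Nfkbiz alone among the 6 members tested. It had 5, 6 and 1 UMIs in border macrophages of mice 1, 2 and 3 (57.6, 27.7 and 16.7 CPM), above the microglia of the same mice (8.89 to 9.96 CPM) each time, and rose by 2.23 ± 0.59 (adjusted p = 0.0024), or by 1.81 with scaling by library size. By kit it had 11 UMIs with V3.0 (52.3 CPM, 10.4 in microglia) and 1 with V3.1 (6.54 CPM, 8.51 in microglia), so the higher level was seen with V3.0 and not with V3.1; neither kit alone left it over the filter, and the difference between kits was not tested. Over all genes 13% were called higher and 10.2% lower (815 of 1456 calls higher, and 556 of 2162 with library size). Nfkbiz again passed the filter mainly through other cell groups (1 of 3 border macrophage sums), and without the filter it remained called (adjusted p = 0.00993). Without mouse 1 it was no longer called (1.80, adjusted p = 0.0948), and without mouse 2 it was not tested. Nfkbia was at 115, 194 and 167 CPM in border macrophages, overlapping the 139 to 190 CPM of microglia, and differed by 0.32 ± 0.24 with TMM scaling (adjusted p = 0.373) and by -0.10 with library size. Rel was lower in CPM in each mouse (69.2, 87.7 and 83.7 CPM against 132, 134 and 142 CPM), but its fitted difference was -0.34 ± 0.28 (adjusted p = 0.441) with TMM scaling and -0.76 ± 0.27 (adjusted p = 0.0223) with library size. Rela and Nfkb1 did not pass the test.

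Nfkbid had 0 UMIs in 363120 UMIs of border macrophages. A count of 0 allows up to 8.26 CPM (3 counts over the group), above the 5.61 CPM of Ccl3/Ccl4- microglia, so that no difference from microglia was detectable at this depth. Pooled neutrophils stood at 19.9 CPM, 2.41-fold above the 8.26 CPM allowed in border macrophages, with the counting error of the neutrophils left out.

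Among the pathway lists in border macrophages, 6 of 15 target genes tested were higher and 3 lower, beside 13% and 10.2% of all genes. Il1b (5.14 ± 0.45), the adhesion molecule gene Vcam1 (4.72 ± 0.41) and Ccl2 (4.28 ± 0.62) rose most. None of these reached the filter's minimum of 29.98 CPM in a sum of Ccl3/Ccl4- microglia. Vcam1 reached it in border macrophages alone, so it could be tested only because it was high there. Of the Il1b UMIs in border macrophages, 44 came from mouse 2, 1 from mouse 1 and 2 from mouse 3 (203, 11.5 and 33.5 CPM), and without mouse 2 it was no longer called (3.32 ± 1.32, adjusted p = 0.0631), whereas Vcam1 and Ccl2 were. Il1a, the E3 ligase gene Itch (-1.76 ± 0.31) and the kinase gene Tbk1 (-1.25 ± 0.46) fell most, with an adjusted p of at most 0.0378 for each of these 6 genes. Il1a had 1 UMI in border macrophages (2.75 CPM, exact Poisson 95% interval 0.0697 to 15.3) and stood at 83.2 CPM in Ccl3/Ccl4- microglia. Tbk1 lost its call whichever mouse was left out, its adjusted p then being 0.0611 to 0.193. Of the receptors and adaptors 2 of 17 were higher, and of the kinases and of the further inhibitors 1 each was lower. With library size 5 targets were higher and 3 lower, 1 receptor or adaptor was higher and 4 lower, and 2 kinases and 4 further inhibitors were lower. Of the dissociation genes 9 of 18 were higher and 3 lower (5 and 5 with library size), led by Fos (5.69 ± 0.80) and Egr1 (5.62 ± 1.01). All 8 Egr1 UMIs in border macrophages came from mouse 2, and without that mouse 3 of 17 dissociation genes were higher and 3 lower, Egr1 was not tested, and 4 of 13 targets were higher and 1 lower. Border macrophages were not split by Ccl3 and Ccl4; all 23 UMIs of Ccl3 and all 22 of Ccl4 in them came from mouse 2.

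In neutrophils, where 39.5% of UMIs came from S100a8 and S100a9, the direction of Nfkbia, Rela and Nfkb1 depended on the scaling. Scaling by library size put the median of all tested genes at -1.79 on the log2 scale, against -0.26 with TMM, and 748 of 5438 called genes were then higher, against 1948 of 4423. By CPM, Nfkbia was at 128, 120 and 124 CPM in neutrophils of mice 1, 2 and 3, below the 139, 190 and 187 CPM of microglia in each mouse. With TMM scaling it rose by 1.03 ± 0.16 (adjusted p = 4.1e-08), while library size alone gave -0.51 ± 0.15, short of the fold threshold. Nfkbiz was higher under either scaling, by 2.69 ± 0.37 with TMM (adjusted p = 4.8e-09) and by 1.15 ± 0.36 with library size (adjusted p = 0.00261); it was at 31.3, 17.6 and 15.5 CPM, above the microglia of each mouse. It reached the filter in 1 of 3 neutrophil sums and none of the negative microglia.

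Nfkbid, which did not pass the filter, was in neutrophils at 20.3, 22.9 and 15.5 CPM (13, 13 and 7 UMIs) against 6.30, 5.25 and 5.33 CPM, 2.91- to 4.35-fold higher in each mouse. In the fit without the filter it was called higher (3.16 ± 0.45, adjusted p = 1.5e-11), where 14.0% of genes were. A UMI of Nfkbid was seen in 12.2% of 270 neutrophils (exact binomial 95% interval 8.56% to 16.7%) and 2.01% of Ccl3/Ccl4- microglia, and in 5.93% (3.42% to 9.45%) and 1.09% after thinning to 2000 UMIs. Rel (-0.12 ± 0.20), Relb (-0.14 ± 0.52), Rela (0.46 ± 0.26) and Nfkb1 (0.19 ± 0.17) were not called with TMM, and with library size all 4 were called lower, at -1.65, -1.67, -1.07 and -1.34. In all, 2 of 6 members were called higher and 0 lower with TMM, beside 31.1% and 39.5% of all genes, and 1 higher and 4 lower with library size. Tnfaip3 had 8 UMIs in all neutrophils (4.82 CPM) against 28.1 CPM in Ccl3/Ccl4- microglia, and was not tested.

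With TMM the pathway genes of neutrophils were called in both directions, as were all genes tested (31.1% higher and 39.5% lower). Of 17 receptors and adaptors tested, 7 were higher and 7 lower, and of 15 targets 6 were higher and 5 lower. Gadd45b (7.54 ± 0.49), Il1b (6.55 ± 0.28) and Irak3, a negative regulator of Toll-like receptor signaling (4.66 ± 0.35), rose most. None of these reached the filter's minimum of 29.98 CPM in a sum of Ccl3/Ccl4- microglia. Outside neutrophils, Irak3 reached it only in border macrophages of mouse 3 (33.5 CPM), so it could be tested only because it was high in neutrophils. Vcam1, Icam1 and the receptor gene Tnfrsf11a fell most, with 0, 1 and 1 UMIs in neutrophils; Vcam1 lost its call whichever mouse was left out, its adjusted p then being 0.0708 to 0.127. Icam1 and Tnfrsf11a were thus each at 0.603 CPM (exact Poisson 95% interval 0.0153 to 3.36), against 105 and 77.6 CPM in Ccl3/Ccl4- microglia. Among 7 kinases 1 was lower, and among 11 further inhibitors and ubiquitin enzymes 2 were higher and 2 lower. With library size most calls were lower in these lists and over all genes, where 748 of 5438 calls were higher among 6273 genes tested. In the lists, 12 receptors and adaptors (2 higher), 9 targets (4 higher), all 7 kinases and 9 further inhibitors (0 higher) were lower. Of the dissociation genes 8 of 18 were higher and 4 lower (4 and 9 with library size), led by Fos (8.43 ± 0.40) and by Rgs1, which had 0 UMIs in neutrophils and 49.0 CPM in microglia.

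Border macrophages and neutrophils, compared in the same fit, differed in Nfkbia, which was lower in border macrophages by 0.71 ± 0.25 on the log2 scale with TMM (adjusted p = 0.014) and higher by 0.40 ± 0.26 with library size (adjusted p = 0.17). By mouse it was at 115, 194 and 167 CPM against 128, 120 and 124 CPM, and the groups overlapped. Over all genes 27.8% were called higher and 25.7% lower (1741 of 3354 calls higher, and 3301 of 4012 with library size). Nfkbia lost its call when the block was dropped (adjusted p = 0.0714) and when mouse 1 was left out (adjusted p = 0.125), where Nfkbid passed the filter and took its place. Without the filter Nfkbid was called lower as well, where 9.54% of genes were. Vcam1, Ccl2 and Cd83 led the pathway genes that were higher in border macrophages, with 0, 0 and 1 UMIs in neutrophils. Tnfaip2 (-5.37 ± 0.48), Gadd45b (1 UMI in border macrophages) and the adaptor gene Myd88 (-2.30 ± 0.54) led those that were lower, of which Myd88 was not called with library size (adjusted p = 0.0742). Vcam1 reached the filter's minimum of 29.98 CPM in border macrophages alone. Outside neutrophils, Tnfaip2 reached it only in Ccl3/Ccl4+ microglia of mice 2 and 3. Vcam1 could thus be tested only because it was high in border macrophages, and Tnfaip2 only because it was high in neutrophils. The counts were 6 higher and 5 lower of 17 receptors and adaptors, 5 and 4 of 15 targets, 1 and 0 of 7 kinases, 1 and 4 of 11 further inhibitors and 6 and 7 of 18 dissociation genes. With library size they were 9 and 0, 6 and 2, 4 and 0, 3 and 1, and 9 and 3 in the same order. Among the dissociation genes Egr1 and Rgs1 rose most, with no UMI in neutrophils and with 8 and 7 UMIs in border macrophages, all from mouse 2; without mouse 2 the counts of this list were 2 higher and 6 lower.

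The kit comparison asked whether the chemistry version changes the measured levels. With all microglia summed per library, 3 libraries against 3, edgeR and DESeq2 each called 0 of 10 members, with 3 at an unadjusted p under 0.05 by edgeR and 2 by DESeq2. Over 12016 genes 1.56% were called higher with V3.1 and 1.51% lower. Nfkb1 and Rel had an adjusted p under 0.05 with differences below the fold threshold. Nfkb1 was at 188 ± 9.19 CPM with V3.0 and 150 ± 11.4 CPM with V3.1 (SD, n = 3), a difference of -0.31 ± 0.08 (adjusted p = 0.0188) that was negative in every mouse (-0.37, -0.35 and -0.28). Rel was at 127 ± 4.38 and 146 ± 1.15 CPM, a difference of 0.22 ± 0.06 (adjusted p = 0.0346) that was positive in every mouse (0.23, 0.23 and 0.14). In the fit blocked by mouse the adjusted p was 0.000139 for Nfkb1 and 0.00276 for Rel, and without the V3.0 library of mouse 3 it was 0.0718 and 0.0659. With 1 mouse left out in turn it ran from 0.0388 to 0.152 for Nfkb1 and from 0.0671 to 0.205 for Rel.

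Nfkbia was higher with V3.1 in every mouse too, by 0.31, 0.22 and 0.19 on the log2 scale, but its spread between mice within a kit was wider (158 ± 27.2 CPM and 186 ± 25.7 CPM), and its fitted difference of 0.26 ± 0.13 had an adjusted p of 0.19. Nfkbid, Nfkbie and Nfkb2 were lower with V3.1 in every mouse, with fitted differences of -0.40 ± 0.19, -0.25 ± 0.11 and -0.17 ± 0.13 and adjusted p of 0.173, 0.154 and 0.419. Nfkbiz, Tnfaip3, Rela and Relb differed by -0.22, -0.15, 0.11 and 0.09, with adjusted p of 0.314 to 0.605. Of the pathway genes, the receptor gene Tlr9 was called higher with V3.1 (1.73 ± 0.25, adjusted p = 0.00105) and Map3k14, which encodes the kinase NIK, lower (-0.62 ± 0.10, adjusted p = 0.00162). These were the only calls in the 4 pathway lists, and the dissociation genes gave 1, Hist1h2bc (0.65 ± 0.10).

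**Figure D4:**
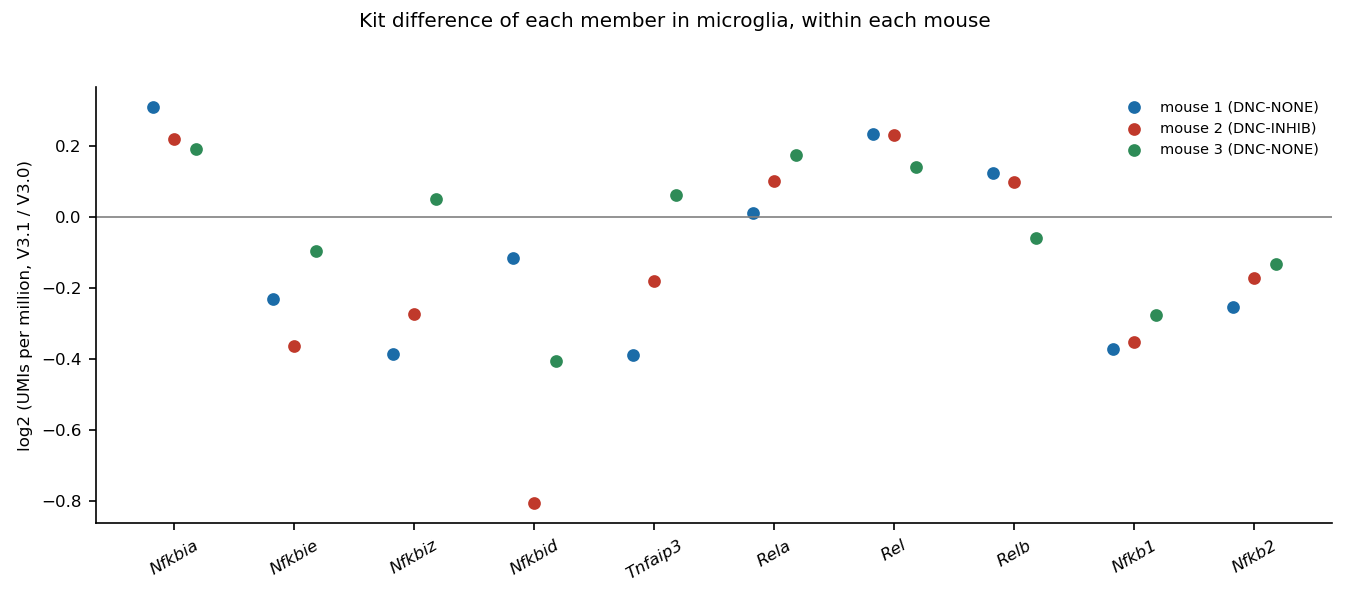
Log2 ratio of CPM in the V3.1 over the V3.0 library of each mouse, in microglia, for the 10 members; each point is a mouse. The points of Nfkb1 lie between -0.37 and -0.28 and those of Rel between 0.14 and 0.23, so each of these genes keeps a sign in all 3 mice.

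The inhibitor cocktail was present in 1 mouse, so the comparison of DNC-INHIB with DNC-NONE sets mouse 2 against mice 1 and 3 and takes its spread from the latter, which assumes that mouse 2 varies alike. The condition and the mouse cannot be told apart. EdgeR and DESeq2 called 0 of 10 members, and 2 (Nfkbia and Nfkbie) had an unadjusted p under 0.05 by edgeR and 0 by DESeq2. Over 13183 genes 0.394% were called higher and 0.47% lower (114 calls, and 16 with DESeq2). Nfkbie differed by 0.29 ± 0.12 and Nfkbia by 0.24 ± 0.10, each with an adjusted p of 0.402. Without mouse 1 the difference of Nfkbia was 0.04 and without mouse 3 it was 0.48, both with no test. The remaining 8 members differed by -0.09 (Nfkbid) to 0.24 (Nfkb2), with adjusted p of at least 0.792.

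Among pathway genes in the same comparison, 3 of 19 targets tested were higher in the DNC-INHIB mouse, namely Cxcl10 (2.17 ± 0.30, adjusted p = 3.1e-09), Il1b (1.48 ± 0.23, adjusted p = 1.6e-07) and Vcam1 (0.87 ± 0.21, adjusted p = 0.00372), and Csf1 was lower (-0.77 ± 0.20, adjusted p = 0.0113). No receptor, adaptor, kinase or further inhibitor gene was called. Of the dissociation genes 3 of 21 were higher and 1 lower, led by the heat shock genes Hspa1a (2.03 ± 0.20) and Hspa1b (1.69 ± 0.19). Hspa1a was at 0.936 and 8.75 CPM in the DNC-NONE mice 1 and 3 and at 19.2 CPM in the DNC-INHIB mouse. In the same order Hspa1b was at 0.981, 12.8 and 21.5 CPM and Il1b at 1.74, 4.20 and 8.11 CPM. For these 3 genes the DNC-NONE mice differed from each other by more than mouse 3 did from mouse 2, as a ratio. This did not hold for Cxcl10 (1.25, 1.06 and 5.19 CPM) or Vcam1 (4.19, 5.31 and 8.60 CPM). In mouse 2, 60 of the 214 microglial Il1b UMIs came from its 25 Ccl3/Ccl4+ cells. With library size Csf1 (adjusted p = 0.0654) and Hspa1b (0.0587) were not called.

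Over the 12 sums of mouse and cell group, the gene most like Nfkbia in log2 CPM was Tlr2, which encodes a receptor for bacterial lipopeptides (Pearson r = 0.93), followed by Pias4 (0.88) and Eif5 (0.87). Rel was most like Peli1 (0.99), Slc15a4 (0.97) and Atp1b3 (0.96), and Nfkbiz was most like Ier3 (0.85), Cstb (0.84) and Plekho2 (0.83). Nfkb1 was nearest to Commd6, Bax and Psmd6 (0.97 to 0.99), Rela to Uba7, Reps1 and Eed (0.99 each) and Relb to Fxr2, Naxe and Trim30d (0.90 to 0.93). Nfkbid was nearest to Mtpn, Trp53inp2 and Mark2 (0.89 to 0.91), Tnfaip3 to Gprasp1, Sharpin and Zfp606 (0.94 to 0.97), Nfkbie to Yod1, Ak6 and Slc30a7 (0.96 to 0.98) and Nfkb2 to Rabgef1, 2900093K20Rik and Uvssa (0.98 each). The sums share mice, libraries and the composition of neutrophil RNA, 6267 genes were compared, and these values are a description without a test.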

How the data were processed

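Single-cell 3′ RNA-seq was measured in 6 libraries. The deposited values are whole-number UMI counts per gene and barcode, which the authors made with Cell Ranger 5.0.0 on mm10 (GRCm38), with the replicates not pooled; features and barcodes come from the same output. The processing notes name Seurat and bcl2fastq as well.

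The members, gene lists and tests were chosen with earlier results of these data known. Kept cells had 1000 to 4000 genes, no more than 12000 UMIs and no more than 15% of them mitochondrial. UMI minimums of the marker gates (30 for microglia, 5 for border macrophages, 80 for neutrophils) were set after the marker counts were seen, and doublets were not removed in the main analysis. UMIs were summed per mouse and cell group (12 sums, mouse as a block), per library in microglia (kits), or per mouse in microglia (inhibitors). The V3.0 library of mouse 3 was kept. Sums were tested with the quasi-likelihood test of edgeR 4.0.16 (R 4.3.3), with TMM scaling and filterByExpr; SE is the log2 fold change over the root of F. P-values were adjusted by Benjamini-Hochberg over all genes tested, and the test was checked on simulated data. Calls needed an adjusted p under 0.05 and an absolute log2 fold change over 0.58. Each group of the inhibitor comparison held 1 or 2 mice. Totals per library in passing cells ran from 3438365 to 17272253 UMIs, which limits the sparse members. Intervals are exact at 95%, and they and the floor of 3 counts cover counting error only. Named genes were all 10 members, per comparison up to 3 called genes with the largest rise and up to 3 with the largest fall over 4 pathway lists, up to 2 called dissociation genes, and for each member the 3 genes of highest Pearson correlation over the sums (log2 CPM, prior count 2).

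Same-numbered libraries come from the same mouse, so the kits are paired by design: their deviations from the kit means correlated at 0.22, 0.41 and 0.0096 in mice 1, 2 and 3 over 12016 genes. Alternatives were DESeq2 1.42.0, its size factors, library size alone, no filter, other cell filters and gates, removal of the 4% highest Scrublet scores (scanpy 1.11.5), thinning to 2000 UMIs, each kit, each mouse left out, the block, and 2 other definitions of Ccl3/Ccl4+ cells. No protein sequences were used.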

Additional observations from a re-analysis of the deposited data

Results flagged for a closer look

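The 418 passing cells outside every gate, which entered no comparison, held more of 4 members than microglia did, with the lowest of the 3 mice above the highest mouse in microglia. Pooled over mice, Nfkbia was at 290 CPM there (212 to 321 over the mice, against 141 to 193 in microglia), Nfkbiz at 59.0 CPM (43.3 to 72.6 against 9.26 to 10.1), Nfkbid at 21.2 CPM (11.4 to 30.7 against 5.53 to 6.24) and Nfkb2 at 43.4 CPM (23.9 to 56.9 against 12.5 to 15.1). These differences were not tested. The cells are a mixture: their monocyte markers summed to 3335 to 4178 CPM, their T or NK cell markers to 682 to 1357 CPM, their neutrophil markers to 11469 to 50386 CPM and their microglial markers to 5321 to 6839 CPM over the mice. No member's level in microglia stood apart in 1 of the 6 libraries by Dixon's test, and none differed between kits in opposite directions in the DNC-INHIB mouse and both DNC-NONE mice.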

How the results depend on the processing

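No member was called between kits or between DNC-INHIB and DNC-NONE under any alternative run; the inhibitor comparison had no test without mouse 1 or mouse 3 and no value without mouse 2. Members called, border macrophages against microglia (1), became 2 with library size only and 0 with doubled gate minimums, thinned cells, V3.0 alone or V3.1 alone (0 to 1 with a mouse left out). Neutrophils against microglia (2) became 5 with library size or a lower gene minimum per cell, 3 without the filter, and 1 with doubled gates, thinning or either kit alone (1 to 3 with a mouse left out). Ccl3/Ccl4+ against Ccl3/Ccl4- microglia (3) became 4 with the lower gene minimum, 2 without the filter, with at most 5% mitochondrial UMIs or with V3.1 alone, 1 with doubled gates, thinning or at least 5 UMIs of both chemokines, and 0 with V3.0 alone or at least 1 UMI of either (0 to 3 with a mouse left out). Border macrophages against neutrophils (1) became 3 with library size, 2 without the filter or with the lower gene minimum, and 0 with doubled gates, thinning, no replicate block or either kit alone (1 with any mouse left out). With the replicate block between kits 0 members were called, and apart from border macrophages against neutrophils the block changed no count. Over all genes, calls between DNC-INHIB and DNC-NONE (114) were 8 with V3.0 alone, 16 with DESeq2, 27 with doubled gates, 33 with high Scrublet scores left out and 62 to 126 under the other alternatives with a test. Calls in Ccl3/Ccl4+ microglia (173) ran from 29 with V3.0 alone to 294 with at least 5 chemokine UMIs (76 without mouse 2).

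The direction turned in 26 member values. With library size only, Nfkbia was -0.10 and Rela -0.31 in border macrophages, Nfkbia -0.51, Rela -1.07 and Nfkb1 -1.34 in neutrophils, and Nfkbia 0.40, Nfkbiz 0.66, Rela 0.77, Rel 0.90 and Nfkb1 0.82 in border macrophages against neutrophils. In border macrophages Rela was -0.046 without the filter, -0.21 to 0.43 with a mouse left out and -0.44 with V3.1 alone, and Nfkbia -0.0031 with V3.1 alone. In neutrophils Relb was 0.45 with the lower gene minimum, Rel -0.24 to 0.043 with a mouse left out and Nfkb1 -0.22 with V3.0 alone. Between these cell types Rel was 0.21 thinned and 0.22 with V3.0 alone, and Nfkb1 0.060 with V3.0 alone. In Ccl3/Ccl4+ microglia Rel was -0.016 thinned. For the inhibitors Rel was 0.00046 with the lower gene minimum, 0.0096 with V3.0 alone and 0.026 with V3.1 alone, and Nfkbid 0.078 with V3.0 alone. The cause was not tested. Filtered genes rose from 6273 to 18975 without the filter, and thinning left 3 members tested. Counting limits the sparse members: Nfkbid had 0 UMIs in 79 border macrophages, which allows 8.26 CPM, and 11 in 66 Ccl3/Ccl4+ microglia.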
